A study of Mus musculus with 8 samples.

Results

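B cells whose heavy chain used IGHV1-26, IGHV1-18 or IGHV1-22, a group of closely related mouse heavy-chain variable (V) genes, were taken from paired antibody sequences of single splenic germinal centre B cells. A cell was kept when its barcode held exactly 1 heavy-chain contig and 1 light-chain contig, and it was assigned to a gene by the deposited V call of the heavy contig. This gave 2536 of 40603 paired cells (6.25%), of which 1362 used IGHV1-26, 832 used IGHV1-18 and 342 used IGHV1-22. Among 97 IGHV genes they ranked 7, 15 and 40 by cell number. The 8 libraries came from mice with intact Dtx1 (Dtx1+/+, WT, 4 libraries) and from mice without it (Dtx1-/-, KO, 4 libraries). In both, spleen cells were enriched with peanut agglutinin beads 10 days after immunization, and the B cell receptor transcripts were amplified and sequenced on the 10x platform. The labels do not name the immunogen, the age or strain of the mice, the cells in which Dtx1 was lost, or how many mice stand behind each library. Clones recurred across libraries of 1 genotype far more often than across genotypes, as given below, so that every p-value here measures only the spread between these libraries, which may be technical.

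An antibody heavy chain is assembled from 1 V, 1 D and 1 J segment, and the join forms the third complementarity-determining region (CDR3). In the germinal centre, activation-induced deaminase (AID) introduces point mutations into the V region, preferentially at short motifs, and also starts switching of the constant region from IgM to IgG, IgA or IgE. Dtx1 encodes Deltex1, a RING-type ubiquitin ligase first described as a regulator of Notch signalling. IGHV1 is the largest heavy-chain V family of the mouse, and many of its genes differ by only a few bases.

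The 3 genes lie in 1 stretch of the heavy-chain locus on chromosome 12 (GRCm38.p6, the mm10 build), IGHV1-18 at chr12:114682632-114682925, IGHV1-22 at chr12:114746273-114746566 and IGHV1-26 at chr12:114788372-114788665, each annotated as 294 bases long. The unmutated V sequence of each gene, from the first base of framework 1 to the last base of framework 3, was read from the cells as the most common sequence over clones and was the same in both genotypes for all 3 genes. Each is 285 bases long, and positions below count from its first base. The sequences are shown with the 14 positions at which they differ in capitals, because some of the positions compared below are among them.
IGHV1-18: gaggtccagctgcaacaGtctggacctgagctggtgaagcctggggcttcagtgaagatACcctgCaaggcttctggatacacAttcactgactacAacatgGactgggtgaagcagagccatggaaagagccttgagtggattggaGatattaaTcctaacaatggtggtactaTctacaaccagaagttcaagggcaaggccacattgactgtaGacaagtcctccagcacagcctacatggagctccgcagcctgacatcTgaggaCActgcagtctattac
IGHV1-22: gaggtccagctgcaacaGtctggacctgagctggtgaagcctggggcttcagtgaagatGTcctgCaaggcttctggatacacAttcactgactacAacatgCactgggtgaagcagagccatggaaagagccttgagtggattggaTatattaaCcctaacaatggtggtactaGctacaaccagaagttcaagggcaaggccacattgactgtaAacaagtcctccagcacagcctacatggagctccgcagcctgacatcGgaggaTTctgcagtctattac
IGHV1-26: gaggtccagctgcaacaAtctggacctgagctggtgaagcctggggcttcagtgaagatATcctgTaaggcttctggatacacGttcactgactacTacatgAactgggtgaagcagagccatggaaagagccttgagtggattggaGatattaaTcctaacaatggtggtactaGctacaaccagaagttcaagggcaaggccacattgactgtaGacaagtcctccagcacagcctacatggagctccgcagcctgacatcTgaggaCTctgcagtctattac
IGHV1-18 and IGHV1-26 shared 97.2% of their bases (8 differences), IGHV1-18 and IGHV1-22 96.5% (10 differences) and IGHV1-22 and IGHV1-26 96.1% (11 differences). Outside the group, the closest genes were IGHV1-34 and IGHV1-19, with 81 and 627 paired cells. Among the differences that change a residue was codon 35, which read gac in IGHV1-18, cac in IGHV1-22 and aac in IGHV1-26. Codon 59 read atc in IGHV1-18 and agc in the other two, and codon 50 read tat in IGHV1-22 and gat in the other two. Of the 2532 cells with a V region of full length, 2531 were nearer to the germline of their assigned gene than to that of any other gene. The exception was an IGHV1-22 cell of KO replicate 1 with 25 mutations, which was nearest to IGHV1-39.

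Each library held 32395632 to 47934592 reads and 754954 to 1155339 transcript molecules (unique molecular identifiers, UMIs) over 4585 to 5712 paired cells. Heavy-chain UMIs differed between the genotypes, with a median of 22 to 25 per cell in the WT libraries and 37 to 41 in the KO libraries. For IGHV1-26 cells the library medians ran from 16 to 20 in WT and from 27.5 to 39.5 in KO, and the groups were as far apart for the other two genes. Pairs of libraries shared 51 to 83 barcodes. A barcode of 146 of the 2536 cells also occurred with a heavy contig in another library, and in 0 of them was the heavy CDR3 the same.

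The first question was how often each gene was used in the 2 genotypes. IGHV1-26 made up 2.52, 2.75, 3.38 and 2.99% of paired cells in WT replicates 1 to 4 and 4.29, 3.78, 3.34 and 3.53% in KO replicates 1 to 4. The highest WT library lay just above the lowest KO library, and the means were 2.91% ± 0.37 and 3.74% ± 0.41 (SD, n = 4 libraries each). The fitted log2 fold change, KO over WT, was 0.37 ± 0.09 (SE, edgeR quasi-likelihood adjusted p = 0.00020, over 81 genes). IGHV1-22 was the rarest of the 3, at 0.580 to 0.805% of WT and 0.804 to 1.17% of KO cells (means 0.699% ± 0.097 and 0.968% ± 0.165). Its log2 fold change was 0.46 ± 0.15 (edgeR adjusted p = 0.0079), and without KO replicate 4 the adjusted p was 0.0601. IGHV1-18 was at 1.90 to 2.22% in WT and 2.02 to 2.22% in KO, with a log2 fold change of 0.05 ± 0.09 (edgeR adjusted p = 0.645). Of all 81 genes tested, 34.6% were called higher and 21% lower in KO at an adjusted p below 0.05, so that 2 of 3 members called higher is to be read against a high background. The median log2 fold change over all genes was 0.20, and it moved by -0.13 with TMM factors and by -0.13 with DESeq2 size factors, which changed the split from 28 higher and 17 lower to 21 and 20 or 19 and 19.

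The 3 log2 fold changes were lower over clones than over cells. When each clone was counted once per library, the log2 fold changes were 0.14 for IGHV1-26 (edgeR adjusted p = 0.248), 0.28 for IGHV1-22 (adjusted p = 0.278) and -0.12 for IGHV1-18 (adjusted p = 0.553), and none was called. With DESeq2 and its own size factors, neither IGHV1-26 (0.23, adjusted p = 0.0774) nor IGHV1-22 (0.33, adjusted p = 0.169) was called. IGHV1-26 cells fell into 320 clones in WT and 410 in KO, a mean of 1.70 and 2.00 cells per clone. IGHV1-22 cells formed 74 WT and 101 KO clones, and IGHV1-18 cells formed 165 and 204, with 2.28 cells per clone in WT and 2.24 in KO.

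**Figure D1:**
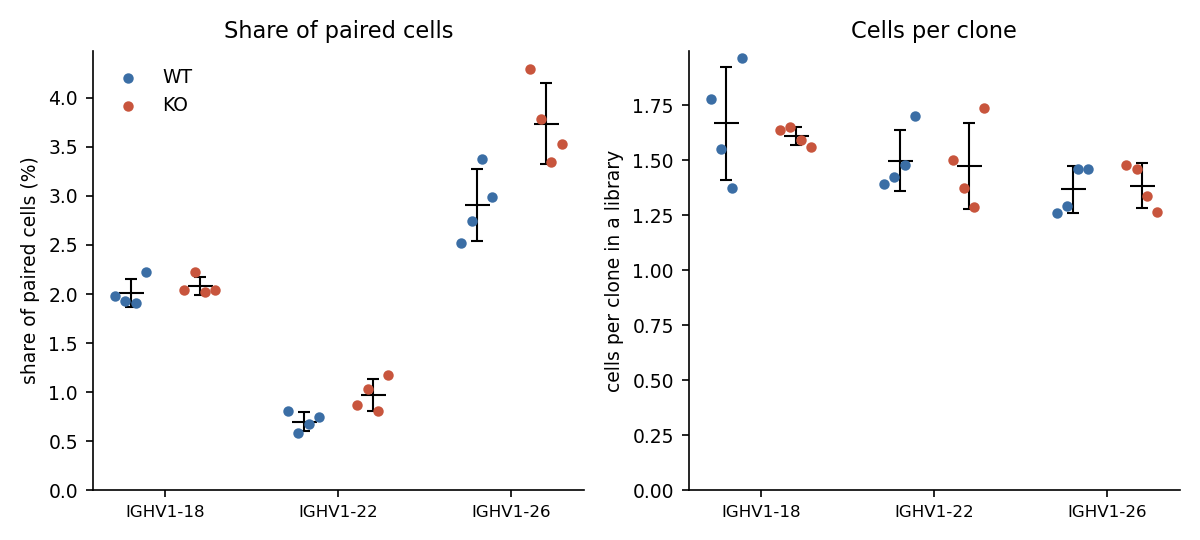
Use of the 3 genes by library. The left panel plots the percentage of paired cells that carried each gene and the right panel the cells per clone, with a point for each of the 4 WT and 4 KO libraries and bars for the mean and SD. IGHV1-26 reached 4.29% in its highest KO library and 3.38% in its highest WT library, whereas the IGHV1-18 libraries of both genotypes lay between 1.90 and 2.22%.

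The second question was how strongly the 3 genes were mutated. In IGHV1-26, 0.444, 0.628, 0.481 and 0.505% of V bases were mutated in WT replicates 1 to 4, and 0.259, 0.173, 0.226 and 0.201% in KO replicates 1 to 4. Every KO library lay below every WT library, with means of 0.514% ± 0.080 in WT and 0.215% ± 0.037 in KO (log2 fold change -1.26 ± 0.15, adjusted p = 4.0e-14 in edgeR). IGHV1-18 carried fewer mutations in both genotypes, at 0.292, 0.320, 0.259 and 0.296% in WT and 0.0994, 0.166, 0.146 and 0.129% in KO. These groups did not overlap either (log2 fold change -1.11 ± 0.30, edgeR adjusted p = 0.00073). IGHV1-22 did not pass the test. Its WT libraries were at 0.288, 0.390, 0.340 and 0.351% and its KO libraries at 0.373, 0.244, 0.366 and 0.119%, and both groups overlapped (log2 fold change -0.32 ± 0.37, edgeR adjusted p = 0.423). Of the 51 mutations of KO replicate 1, 25 came from the cell nearest to IGHV1-39. With only cells nearest to their own germline, the log2 fold change of IGHV1-22 was -0.57 (edgeR adjusted p = 0.139). Of 44 genes tested for mutation, 70.5% were called lower and 0 higher in KO, so that the fall in 2 of the 3 members was shared by most heavy-chain V genes. Among cells of the other IGHV1 genes the frequency was 0.502% ± 0.018 in WT and 0.265% ± 0.019 in KO.

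The share of cells with at least 1 V mutation gave the same calls. In IGHV1-26 it was 37.7% ± 5.7 in WT and 21.4% ± 2.3 in KO (log2 fold change -0.80 ± 0.11, edgeR adjusted p = 3.9e-07), and in IGHV1-18 32.1% ± 3.5 and 18.0% ± 1.1 (-0.84 ± 0.18, adjusted p = 0.00013). In IGHV1-22 it was 22.0% ± 6.1 and 21.6% ± 6.7 (-0.00 ± 0.28, adjusted p = 0.993), where 50% of the 44 genes were called lower. Strongly mutated cells were rarer in KO in each gene. Cells with 6 or more mutations made up 43 of 542 WT and 15 of 816 KO cells of IGHV1-26, 9 of 376 and 4 of 456 of IGHV1-18, and 11 of 131 and 7 of 211 of IGHV1-22. The difference between genotypes in a member was set against that among other IGHV1 cells of the same library, and in no member was this difference of differences in mutation frequency called (exact permutation test, adjusted p = 0.171 to 0.446 over 6 values). The call for IGHV1-18 was lost among cells with 20 to 40 heavy-chain UMIs (mutation frequency, log2 fold change -0.93, adjusted p = 0.153; mutated cells, -0.87, adjusted p = 0.0678). For IGHV1-22 the sign turned there (0.31, adjusted p = 0.732, and 0.26, adjusted p = 0.762).

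Within libraries, IGHV1-18 was less mutated than the pooled cells of the IGHV1 genes outside the group. Its mutation frequency averaged 0.213% ± 0.087 over the 8 libraries against 0.383% ± 0.128 in other IGHV1 cells, and it was lower in 8 of 8 libraries (exact sign-flip test, adjusted p = 0.0268 over 48 comparisons). The same held for mutated cells, at 25.0% ± 7.9 against 31.6% ± 7.1 (adjusted p = 0.0268, lower in 8 of 8). The share of mutated cells in IGHV1-22 was 21.8% ± 5.9, and IGHV1-18 was above it in 5 of 8 libraries (exact sign-flip test, adjusted p = 0.457). IGHV1-18 was also less mutated than IGHV1-26 in 8 of 8 libraries (adjusted p = 0.0268), a call lost when each clone was counted once (adjusted p = 0.0592). Cells of large clones were less often mutated than cells of clones of 1 cell. Among IGHV1-18 cells of WT, 34.5% of cells in clones of 1 cell were mutated, against 17.9% in clones of 5 or more cells, and in KO these shares were 32.4% and 5.94%. For IGHV1-22 the corresponding shares were 28.6% and 0% in WT (49 cells in 3 large clones) and 37.0% and 5.81% in KO, and for IGHV1-26 39.6% and 33.2% in WT and 31.9% and 14.0% in KO.

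**Figure D2:**
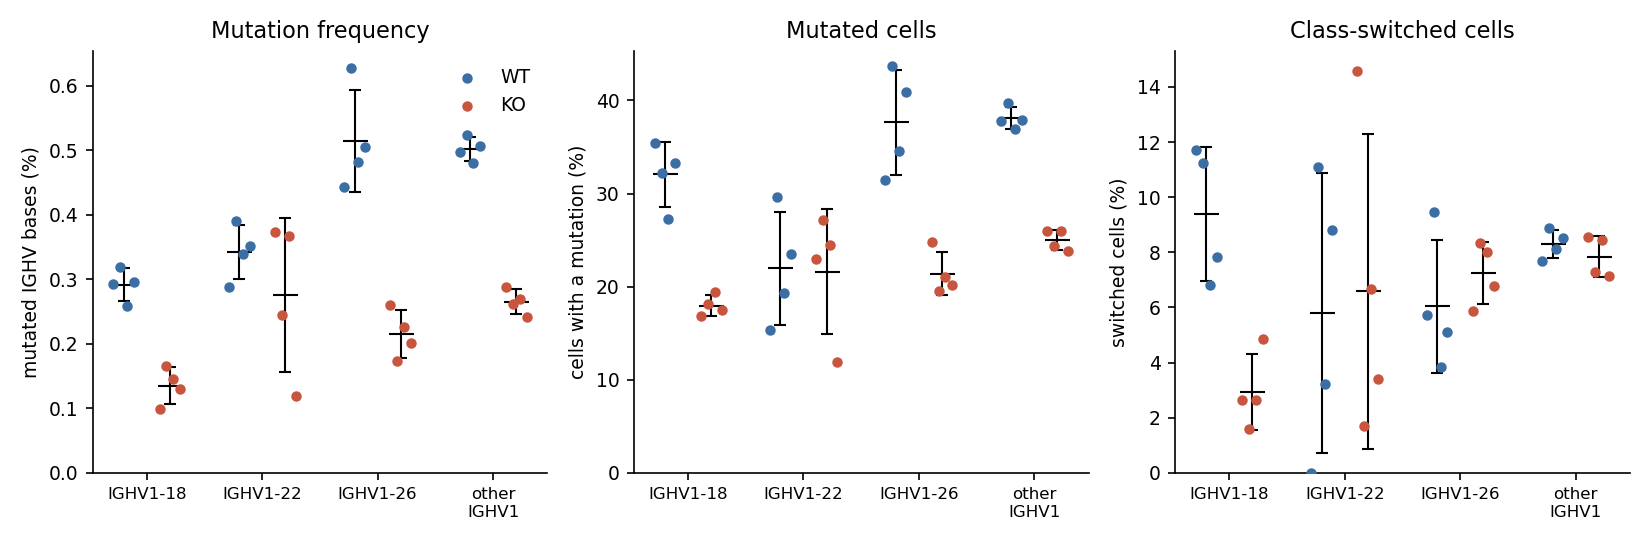
Mutation and class by library. The panels plot the percentage of mutated V bases, the percentage of cells with at least 1 mutation and the percentage of class-switched cells for the 3 genes and for all other IGHV1 genes, with 1 point per library and bars for mean and SD. The WT and KO points of IGHV1-26 and IGHV1-18 were apart in both mutation panels, those of IGHV1-22 overlapped, and in the class panel the points of IGHV1-18 alone were apart.

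The third question was where in the V region the mutations lay. AID motifs were counted as WRC with the C mutated (AAC, AGC, TAC or TGC) and, on the other strand, GYW with the G mutated (GTT, GCT, GTA or GCA). They covered 27.1, 30.6 and 28.9% of the C and G positions of IGHV1-18, IGHV1-22 and IGHV1-26, and held 63.4, 73.7 and 75.8% of the mutations at C or G. The 2 complementarity-determining regions of the V segment made up 13.7% of positions and held 19.2, 21.1 and 19.7% of the mutations. No difference between genotypes in either share was called in any member (exact permutation test over libraries, adjusted p = 0.343 to 0.914 over 6 values). Single positions were picked by their counts and are given without a test.

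Position 176 was the most mutated base of IGHV1-26 and of IGHV1-22. It is the G of codon 59 (agc, serine), lies just behind CDR2 and forms an AID motif. A mutation there was seen in 80 of 713 IGHV1-26 clones (11.2%) and in 18 of 175 IGHV1-22 clones (10.3%). In IGHV1-18 the germline base at position 176 is T, codon 59 reads atc (isoleucine) and there is no motif. Not 1 of its 361 clones was mutated there. If cells are counted as independent, which cells of 1 clone are not, 0 of 832 cells allows a share of up to 0.361%. The neighbouring C at position 177 was mutated in 5.19% of IGHV1-26, 4% of IGHV1-22 and 0.831% of IGHV1-18 clones. In IGHV1-26 the change at position 176 was mostly G176A, which gives S59N when it occurs alone. S59N was found in 42 clones with 26 different light-chain V genes across all 8 libraries, and S59T in 31 clones with 21. In IGHV1-22 the order was the other way round, with S59T in 10 clones and S59N in 6. By library, 12, 20, 15 and 14 WT cells and 13, 5, 11 and 11 KO cells of IGHV1-26 were mutated at position 176, which was 11.3% of WT and 4.90% of KO cells but 29.9% and 22.7% of the mutated cells.

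A second difference of this kind lay at position 102, the G of the methionine codon 34. The base behind it is C in IGHV1-22, which completes a GCA motif, G in IGHV1-18 and A in IGHV1-26. Position 102 was mutated in 10 of 175 IGHV1-22 clones (5.71%), all giving M34I, with 8 light-chain V genes and in 7 of the 8 libraries. In IGHV1-18 it was mutated in 0.831% of clones and in IGHV1-26 in 1.82%. Position 148, where IGHV1-18 and IGHV1-26 have G and IGHV1-22 has T, was mutated in 3.88, 1.40 and 0.571% of clones of IGHV1-18, IGHV1-26 and IGHV1-22, in IGHV1-18 mostly as G148A (D50N). A position with the same bases around it in all 3 genes, the G at position 170 in CDR2, was mutated in 4.71, 4 and 4.49% of the clones of IGHV1-18, IGHV1-22 and IGHV1-26, in each most often to A (G170A, G57D when alone). By genotype, position 170 was mutated in 1.60% of WT and 3.29% of KO cells of IGHV1-18, 2.29% and 1.90% of IGHV1-22 and 3.51% and 2.21% of IGHV1-26. Across all 285 positions the profile of IGHV1-22 resembled that of IGHV1-26 (Pearson r = 0.82) more than that of IGHV1-18 (r = 0.42), and IGHV1-18 and IGHV1-26 gave r = 0.50. These r are descriptions over positions of the same libraries and depend on how many mutations each gene had (490 in IGHV1-18, 285 in IGHV1-22 and 1296 in IGHV1-26).

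**Figure D3:**
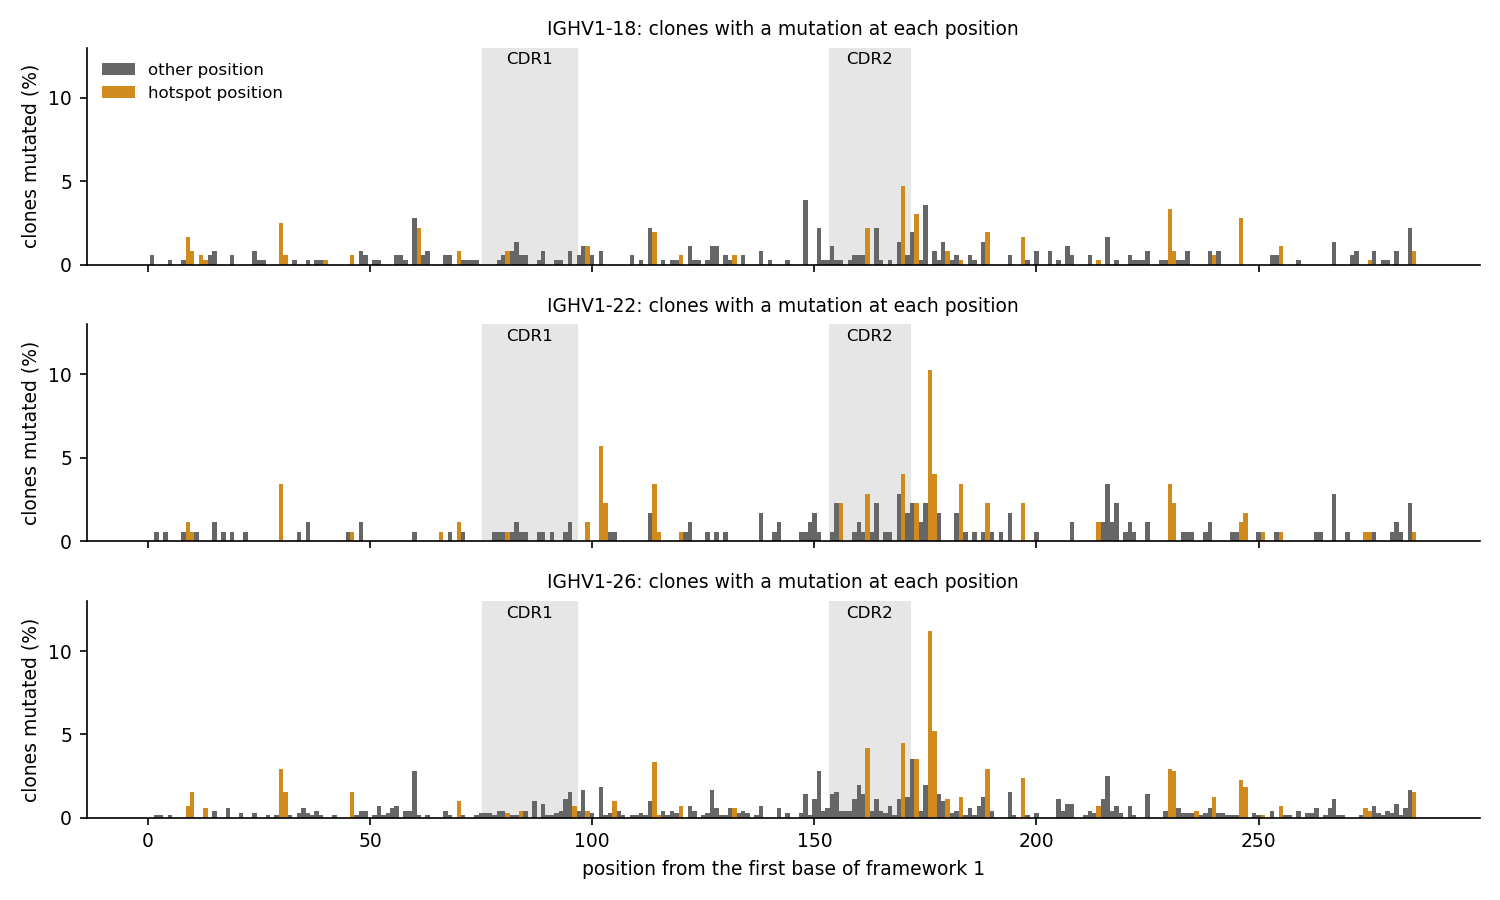
Mutation along the V region. For each gene the bars give the percentage of clones with a mutation at each of 285 positions, counted from the first base of framework 1. The bar at position 176 reached 11.2% in IGHV1-26 and 10.3% in IGHV1-22 and was 0% in IGHV1-18, while the bar at position 170 stood between 4 and 4.71% in all 3.

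In 4 IGHV1-26 cells the V region was shorter than its germline around the same codons. Of these, 3 KO cells of 1 clone, in 2 libraries, lacked 15 bases at positions 164 to 178. All 3 were IGHG1 cells paired with IGKV1-117 and carried 0 other mutations. A single WT cell, with IGHM and IGKV4-72, lacked 12 bases at positions 168 to 179. The missing stretches were as follows.
KO clone: atggtggtactagct
WT cell: tggtactagcta

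The fourth question was which antibody class the cells expressed. IGHV1-18 cells were less often class-switched (IgG, IgA or IgE) in KO than in WT. The WT libraries had 11 of 94, 10 of 89, 6 of 88 and 8 of 102 switched cells and the KO libraries 3 of 113, 2 of 126, 3 of 113 and 5 of 103. All KO libraries (1.59 to 4.85%) lay below all WT libraries (6.82 to 11.7%), with means of 2.94% ± 1.37 and 9.40% ± 2.43 (log2 fold change -1.67 ± 0.43, edgeR adjusted p = 0.0018). Of 44 genes, 9.09% were called lower and 11.4% higher in KO. The IGHV1-18 value rests on 35 WT and 13 KO switched cells. It was not called among cells with 20 to 40 heavy-chain UMIs (-0.35, adjusted p = 0.833), nor with an exact permutation test in place of edgeR (adjusted p = 0.126). The fall in IGHV1-18 was not called as different from that in other IGHV1 cells, where 8.30% ± 0.51 of WT and 7.85% ± 0.74 of KO cells were switched (difference of -6.01 percentage points, exact permutation p = 0.0286, adjusted p = 0.171). Here too the p was the smallest possible, so the missing call over 6 values decides nothing. IGHV1-26 cells were switched at 6.04% ± 2.41 in WT and 7.25% ± 1.13 in KO (log2 fold change 0.29 ± 0.30, edgeR adjusted p = 0.505), and IGHV1-22 cells at 5.79% ± 5.09 and 6.58% ± 5.72 (0.20 ± 0.66, adjusted p = 0.845). With so few switched cells, a missed call does not show that the genotypes were alike.

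Among the switched cells of IGHV1-26, IgG1 was the main class in KO but not in WT. IGHG1 made up 64.3, 94.4, 93.3 and 100% of switched cells in KO replicates 1 to 4 (52 of 59 cells) and 57.1, 41.7, 16.7 and 42.9% in WT replicates 1 to 4 (13 of 32 cells). The lowest KO library lay above the highest WT library (88.0% ± 16.1 against 39.6% ± 16.8, exact permutation p = 0.0286, the smallest that 4 against 4 libraries allow, adjusted p = 0.0286 over 2 values). Over the 3 genes together the IGHG1 share was 83.4% ± 14.4 in KO and 48.1% ± 11.6 in WT (adjusted p = 0.0286 by the same exact test). IGHV1-26 held most switched KO cells of this pool. In IGHV1-18 alone the libraries overlapped, at 18.2 to 83.3% in WT and 50 to 100% in KO (2 to 11 switched cells each). Those of IGHV1-22 overlapped too (0 to 7 switched cells each), and neither gene was tested alone. Other IGHV1 cells showed a gap similar to that of the 3 genes together, at 77.6% ± 0.3 in KO and 41.5% ± 2.5 in WT. With any 1 WT library left out both adjusted p were 0.0571, with differences of 40.8 to 54.3 percentage points for IGHV1-26. The smallest p that the exact test can give is 0.0286 then too. In WT, IGHG2B was as common as IGHG1 in IGHV1-26 (14 and 13 cells), while KO held 5 IGHG2B cells.

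An IGHD constant region, which marks naive or transitional B cells, was seen in 13 of 543 IGHV1-26 cells of WT (2.39%) and in 1 of 819 of KO. Over all paired cells the shares were 0.652% in WT and 0.123% in KO. The 13 cells lay in all 4 WT libraries (4, 2, 4 and 3 cells), belonged to 13 clones, had a median of 7 heavy-chain UMIs and carried 0 mutations. IGHV1-18 and IGHV1-22 together had 3 IGHD cells in WT and 1 in KO. Cells with more than 10 times the median heavy-chain UMI count of their library, as plasma cells would have, numbered 5 of the WT and 3 of the KO cells of the 3 genes. Unmutated IGHM or IGHD cells made up 64.8% of all paired WT cells and 76.9% of all paired KO cells. The shares were 62.2% and 77.1% in IGHV1-26, 64.6% and 81.4% in IGHV1-18 and 77.1% and 78.7% in IGHV1-22. IGHV11-2 and IGHV12-3, genes known from B-1 cells, were used by 0.492% of all paired WT and 1.42% of KO cells. The part of cells with any of these signs in the values above was not tested.

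The fifth question was which light chains the heavy chains were paired with. For each gene the 5 most used light-chain V genes were compared between genotypes, and 9 of these 15 shares differed (exact permutation test over libraries, adjusted p = 0.0476 over 15 values, the smallest reached). The light chains of other heavy-chain V genes were not tested in this way. The 9 of 15 therefore has no background to be read against and is not a trait of these 3 genes. Leaving out any 1 of the 4 KO libraries ended all 9 calls (adjusted p of 0.0536 or more). The smallest p that the exact test can give is then still 0.0286. The adjusted p of the 9 values depends on how many of the 15 reach that p, so the 9 calls were lost together. This loss does not show which of them rested on 1 library. With each clone counted once the 9 calls held (adjusted p = 0.0429 each), but 4 differences were over 1.5 times smaller. In percentage points, KO minus WT, IGKV12-38 with IGHV1-18 moved from -21.7 to -14.0, IGKV3-2 with IGHV1-22 from -22.7 to -9.94, IGKV13-85 with IGHV1-22 from 14.4 to 5.62 and IGKV4-72 with IGHV1-26 from -10.1 to -4.49. IGHV1-18 paired most often with IGKV12-38 in WT, in 43.8, 36.7, 26.1 and 37.3% of its cells, against 12.4, 15.7, 12.4 and 16.5% in KO. Both were far above the share of IGKV12-38 among other IGHV1 cells (0.609% ± 0.189 in WT and 0.535% ± 0.210 in KO), and it was above that share in 8 of 8 libraries. This and the like counts below are descriptions, since the light chains were chosen as the most used with each gene. IGKV1-135 was the other main partner of IGHV1-18, at 19.1% ± 2.0 of WT and 17.2% ± 1.7 of KO cells (adjusted p = 0.245), against 5.13% and 2.99% of other IGHV1 cells (higher in 8 of 8). Counted once per clone, IGKV1-135 fell from 13.2% in WT to 5.77% in KO (adjusted p = 0.0429). IGKV12-44 was at 1.82% ± 1.27 of WT and 11.5% ± 2.0 of KO cells of IGHV1-18 (adjusted p = 0.0476).

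Of the 5 leading light chains of IGHV1-22, 3 differed between the genotypes. IGKV3-2 was paired with 25.6, 25.9, 19.4 and 29.4% of its WT cells and 2.08, 1.69, 2.22 and 3.39% of its KO cells (adjusted p = 0.0476). In KO the leading partners were IGKV12-46, at 15.6% ± 2.2 against 0.926% ± 1.85 in WT, and IGKV13-85, at 14.4% ± 3.0 against 0 of 131 WT cells (adjusted p = 0.0476 for each). The 0 of 131 allows a share of up to 2.29% if cells are counted as independent, which cells of 1 clone are not. The other two were not called, IGKV10-96 at 7.00% ± 6.90 in WT and 12.4% ± 2.2 in KO and IGKV6-23 at 10.2% ± 5.9 and 4.70% ± 1.46 (adjusted p = 0.231 each). Among other IGHV1 cells the means of the 3 called light chains lay between 0.639 and 1.36% in both genotypes. Lambda light chains were found in 9 of 131 WT and 1 of 211 KO cells of IGHV1-22.

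IGHV1-26 was the least restricted, with its 5 leading partners covering 20.4% of WT and 29.5% of KO cells. IGKV4-72 was paired with 11.5, 8.59, 12.2 and 9.49% of WT cells and with 0.420, 0, 0.535 and 0.562% of KO cells (adjusted p = 0.0476). In KO, IGKV1-117 (9.10% ± 1.38 against 2.29% ± 1.13), IGKV12-44 (6.80% ± 0.97 against 0.698% ± 0.528) and IGKV12-41 (5.52% ± 1.37 against 2.08% ± 1.28) were higher (adjusted p = 0.0476 each). IGKV12-41 was above its share in other IGHV1 cells in 8 of 8 libraries (0.322% in WT and 0.629% in KO). IGKV1-117 ran the other way among other IGHV1 cells, with 9.53% ± 0.56 in WT and 4.69% ± 0.18 in KO. It was above their share in 4 of 8 libraries.

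**Figure D4:**
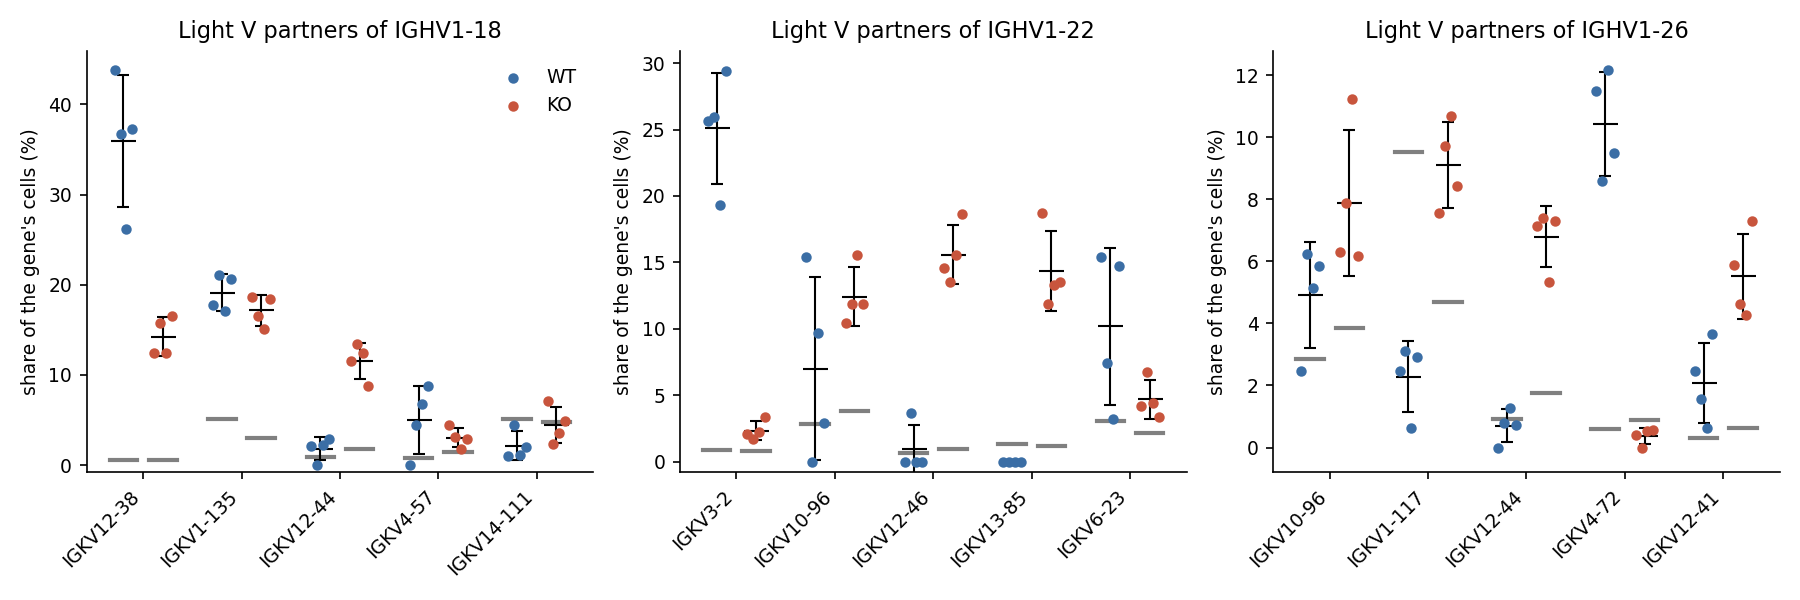
Light-chain partners by library. For each heavy gene the panel plots the percentage of its cells paired with each of its 5 most used light-chain V genes, with 1 point per library, black marks for mean and SD, and grey bars for the mean share among other IGHV1 cells of the genotype. IGKV12-38 with IGHV1-18 fell from a mean of 36.0% to 14.3%, IGKV3-2 with IGHV1-22 from 25.1% to 2.35% and IGKV4-72 with IGHV1-26 from 10.4% to 0.379%.

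Several of these pairs held a few expanded clones. A clone was a set of cells with the same heavy V and J and light V and J genes, the same CDR3 length and at least 0.85 nucleotide identity of the heavy CDR3. The heavy CDR3 of the leading clone of each gene and genotype, from the cysteine to the tryptophan codon, is shown because these are the largest clones of each gene and genotype.
IGHV1-18 WT, IGKV12-38, IGHJ2, 70 cells: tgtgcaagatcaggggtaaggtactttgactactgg
IGHV1-18 KO, IGKV1-135, IGHJ4, 60 cells: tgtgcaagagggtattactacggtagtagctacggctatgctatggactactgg
IGHV1-22 WT, IGKV3-2, IGHJ1, 22 cells: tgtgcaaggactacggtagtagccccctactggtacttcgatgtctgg
IGHV1-22 KO, IGKV13-85, IGHJ4, 26 cells: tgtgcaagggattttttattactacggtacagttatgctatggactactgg
IGHV1-26 WT, IGKV4-72, IGHJ1, 23 cells: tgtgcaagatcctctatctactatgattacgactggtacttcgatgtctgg
IGHV1-26 KO, IGKV4-61, IGHJ2, 18 cells: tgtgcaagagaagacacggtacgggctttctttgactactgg
Each was found in all 4 libraries of its genotype, and most of its cells expressed IGHM and were unmutated. The IGHV1-18 WT clone had 19, 15, 13 and 23 cells in its 4 libraries, 3 mutated and 0 switched. The IGHV1-18 KO clone had 12, 19, 14 and 15 cells, 1 mutated and 0 switched. In the IGHV1-22 KO clone 3 of 26 cells were mutated and 3 switched. The IGHV1-26 clones had 0 mutated and 0 switched cells. An IGHV1-26 clone of WT with IGKV4-74 differed from these, since 18 of its 19 cells were mutated, with a mean of 4.26 mutations per cell, and 0 were switched. Its most common CDR3 follows.
IGHV1-26 WT, IGKV4-74, IGHJ2, 19 cells: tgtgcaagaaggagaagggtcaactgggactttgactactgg
Of the IGHV1-18 cells, the 3 largest clones held 25.5% in WT and 23.7% in KO, of IGHV1-22 37.4% and 25.1%, and of IGHV1-26 10.7% and 6.23%. In WT 40 of 165 IGHV1-18, 8 of 74 IGHV1-22 and 46 of 320 IGHV1-26 clones occurred in at least 2 libraries, and in KO 48 of 204, 25 of 101 and 109 of 410.

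Clones by this rule that spanned both genotypes numbered 8 of 361 for IGHV1-18, 0 of 175 for IGHV1-22 and 17 of 713 for IGHV1-26. With an identity of at least 0.9 the numbers were 4, 0 and 12. In 0 of these 25 clones did the WT and the KO cells share a CDR3 nucleotide sequence. The genotypes come from different mice, so such a set groups similar rearrangements and not 1 lineage. The largest had 70 WT and 15 KO cells of IGHV1-18 with IGKV12-38. Another joined 13 WT and 60 KO cells of IGHV1-18 with IGKV1-135 and IGHJ4, whose CDR3s had 18 codons, and the leading CDR3 of its WT cells is shown for comparison with the KO sequence above.
IGHV1-18 WT, IGKV1-135, IGHJ4, 13 cells: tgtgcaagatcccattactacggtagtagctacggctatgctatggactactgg
IGHV1-18 was paired with IGKV1-135 in 150 cells of 19 clones, the 73 cells of this set included. Of the 150 cells, 143 used IGHJ4 and 114 had a CDR3 of 18 codons.

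Some heavy-chain rearrangements occurred with several light chains, counted by their V and J genes. Of rearrangements with 2 or more cells, this was seen in 11 of 50 in WT and 9 of 111 in KO for IGHV1-26, in 8 of 38 and 4 of 56 for IGHV1-18 and in 1 of 10 and 3 of 26 for IGHV1-22. The WT CDR3 shown above with IGKV4-72 was found in 45 WT cells, 23 with IGKV4-72 and IGKJ5, 16 with IGKV4-72 and IGKJ2, 5 with IGKV4-68 and IGKJ5 and 1 with IGKV14-100. A similar CDR3 with IGKV4-68 led a KO clone of 17 cells, in all 4 KO libraries, which was joined with 15 WT cells.
IGHV1-26 KO, IGKV4-68, IGHJ1, 17 cells: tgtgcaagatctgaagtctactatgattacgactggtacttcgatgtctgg
Both end in the same 33 bases, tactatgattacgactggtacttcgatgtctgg. This ending was found in 72 of 1362 IGHV1-26 cells (54 WT and 18 KO), in 0 of 832 IGHV1-18 and 0 of 342 IGHV1-22 cells and in 1 of 23838 other IGHV1 cells. The 72 cells belonged to only 5 clones. Over all 40603 paired cells the ending was found in 76 cells of 7 clones. It was picked after the values were seen, and mutation was near absent, with 1 mutated cell among the 72.

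The pair of IGHV1-26 with IGKV1-117, likewise examined after its values were seen, differed from the rest of the gene in class and mutation. KO libraries held 18, 21, 20 and 15 such cells and WT libraries 3, 4, 1 and 4. Of the 74 KO cells 28 were switched (37.8%), all of them IGHG1, from 10 clones, against 31 of 744 KO cells with other light chains (4.17%). Mutated cells made up 59.2% and 18.0% of these sets. The 12 WT cells had 1 switched and 6 mutated cells. Without IGKV1-117 the switched share of IGHV1-26 turned from higher to lower in KO (log2 fold change -0.48, edgeR adjusted p = 0.287), and the IGHG1 share of switched cells was 24 of 31 in KO and 13 of 31 in WT. Within the KO pair, 43 cells with IGHJ2 and a CDR3 of 14 codons came from 10 clones in 4 libraries and had 36 different CDR3 sequences. Their consensus is given first, with capitals for the 31 of 42 positions shared by at least 90% of the different sequences, and then the sequences with the most cells (3 each).
IGHV1-26 with IGKV1-117, KO consensus: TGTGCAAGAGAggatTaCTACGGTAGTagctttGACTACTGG
KO, 3 cells in 3 libraries, all switched, IGKJ1: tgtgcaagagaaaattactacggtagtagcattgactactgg
KO, 3 cells in 3 libraries, all switched, IGKJ5: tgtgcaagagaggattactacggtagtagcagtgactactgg

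The J segments and the length of the CDR3 completed the comparison. IGHJ1 was used by 27.0 to 32.1% of IGHV1-26 cells in WT and 14.4 to 21.0% in KO, and by 25.8 to 33.3% and 6.78 to 10.4% of IGHV1-22 cells. IGHV1-18 cells used IGHJ4 at 30.0 to 35.2% in WT and 38.6 to 45.6% in KO, and IGHJ2 at 26.7 to 33.3% and 20.4 to 24.4%. The libraries of the genotypes did not overlap in these 4 values, but none passed the test over 12 values (exact permutation p = 0.0286, adjusted p = 0.0857 each). Among other IGHV1 cells IGHJ1 moved the other way, from 13.2% in WT to 16.9% in KO. Counting each clone once turned the sign for IGHJ2 in IGHV1-18 (8.00 percentage points higher in KO, adjusted p = 0.114). It moved the difference of IGHJ4 in IGHV1-18 from 9.66 to 1.13 points, that of IGHJ1 in IGHV1-22 from -20.9 to -11.8 points and that of IGHJ1 in IGHV1-26 from -12.7 to -5.49 points. Within libraries, IGHV1-18 and IGHV1-22 used IGHJ4 more than other IGHV1 cells did (37.0% ± 5.8 and 34.5% ± 8.1 against 22.3% ± 1.5). Each was higher in 8 of 8 libraries (exact sign-flip test, adjusted p = 0.0268 each). With each clone counted once, the excess of IGHV1-18 went from 14.7 to 8.82 points, in 7 of 8 libraries (adjusted p = 0.0469). IGHJ3 was lower than in other IGHV1 cells in all 3 genes, in 8 of 8 libraries (adjusted p = 0.0268 each). Over clones this was not called for IGHV1-18 (adjusted p = 0.295).

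The heavy CDR3 was shorter in IGHV1-22 than in IGHV1-18 and IGHV1-26. Means over the 8 libraries were 15.1 ± 0.5 codons in IGHV1-18, 14.8 ± 0.2 in IGHV1-26, 13.8 ± 0.5 in IGHV1-22 and 14.3 ± 0.1 in other IGHV1 cells. IGHV1-18 was above IGHV1-22 and above other IGHV1 cells, and IGHV1-22 below IGHV1-26, in 8 of 8 libraries (exact sign-flip test, adjusted p = 0.0268 each), and these 3 calls held with each clone counted once. Over cells the difference between IGHV1-18 and IGHV1-26 was not called (adjusted p = 0.188), and in WT the mean of IGHV1-26 (14.8) was above that of IGHV1-18 (14.7). With each clone counted once, IGHV1-18 was above IGHV1-26 in 8 of 8 libraries (15.1 ± 0.3 against 14.5 ± 0.2 codons, exact sign-flip test, adjusted p = 0.0288). Of the 48 comparisons within libraries, 14 were called over cells, 16 over clones and 6 over both. Between genotypes the CDR3 of IGHV1-18 was 14.7 ± 0.3 codons in WT and 15.5 ± 0.3 in KO (exact permutation adjusted p = 0.0857), a difference that fell from 0.73 to 0.30 codons with each clone counted once (adjusted p = 0.686). The other two genes were closer (adjusted p = 0.643 for IGHV1-26 and 0.914 for IGHV1-22). Short CDR3s of 9 codons or fewer were found in 18 of 101 KO and 7 of 74 WT clones of IGHV1-22, against 13 of 410 and 17 of 320 of IGHV1-26.

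**Figure D5:**
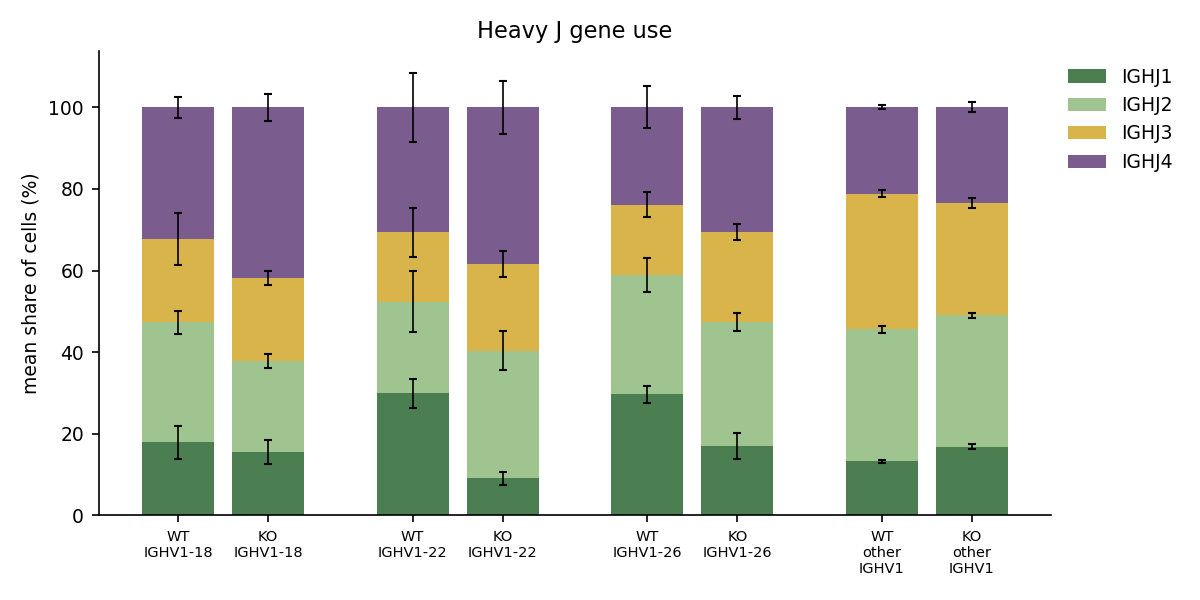
Use of the IGHJ segments. Stacked bars give the mean percentage of cells with IGHJ1 to IGHJ4 for each gene and for other IGHV1 genes in the WT and KO libraries (n = 4 each), with SD bars. The IGHJ1 part was 29.9% in WT and 9.06% in KO for IGHV1-22 and 29.7% and 17.0% for IGHV1-26, against 13.2% and 16.9% for other IGHV1 genes.

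Across the 8 libraries, the gene whose share of cells followed IGHV1-26 most closely was IGHV14-2 (Pearson r = 0.86 of log2 shares), then IGHV12-3 (r = 0.83), a gene known from B-1 cells. IGHV1-22 was most like IGHV2-6 (r = 0.87) and IGHV1-50 (r = 0.85), and IGHV1-18 most like IGHV2-6 (r = 0.79) and IGHV1-76 (r = 0.53). Among the 3 members themselves r was 0.27 to 0.52. These values describe 8 libraries of 2 genotypes that share their cell totals.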

How the data were processed

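The authors deposited 1 table of assembled, annotated B cell receptor contigs per library, made with Cell Ranger on the mm10 build and R 4.3.1, per the submitters' processing notes. Each row holds V, D, J and constant gene calls, the sequences of the framework and CDR segments, and raw counts of reads and UMIs, per the file headers. All 104649 deposited contigs were marked as cells, high confidence, full length and productive.

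No doublet caller was run. Barcodes with more than 1 heavy or light contig, as doublets can give, were left out, as were those with only 1 chain, and 2536 of 3043 heavy contigs of the 3 genes were kept.

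Analysis used Python 3.11.15, pandas 2.3.3, R 4.3.3, edgeR 4.0.16 and DESeq2 1.42.0. Germlines were taken as the most common framework 1 to framework 3 sequence over at least 20 clones (77 of 97 genes), and mutations were counted as mismatches to them. Shares of cells were tested with edgeR's quasi-likelihood test on cells per gene and library, with paired cells as library size, for 81 genes with at least 20 cells in total and 5 cells in at least 4 libraries. Mutations, mutated cells and switched cells were tested likewise for the 44 genes with a germline and at least 20 cells in every library, with bases or cells as offset. Benjamini-Hochberg adjustment ran over all genes tested, and a call is an adjusted p below 0.05. Single values were compared by exact two-sided permutation over the 70 assignments of 8 libraries (smallest p 0.0286) or, within libraries, by exact two-sided sign flips (256, smallest p 0.0078). The fits and tests were tested on simulated data, in which most changes made in the switched share were not called. Counts limit the precision of rare classes, and intervals cover counting error only.

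The members and lists were chosen with earlier results of these data known. Named were the 3 genes, for each the 2 genes closest in germline and the 2 most alike in share, its 5 leading light chains, its 3 largest clones per genotype, up to 5 clones found in both genotypes and its 5 most mutated positions. Positions 102, 148 and 177 were also compared across the 3 genes. The comparison by IGKV1-117, the shared CDR3 ending, the CDR3 consensus, the rearrangements with several light chains and the shortened V regions were chosen after the values were seen, as were the fit without IGKV1-117 and the clone-level repeat of the within-library comparisons. Gene coordinates came from a RefSeq gene table of GRCm38.p6. Replicate numbers did not pair the libraries.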

Additional observations from a re-analysis of the deposited data

Results flagged for a closer look

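Of 94 sets of 4 libraries looked at, 3 held a library that lay far from the other libraries of its genotype, and chance alone sets about 1 in 20 apart. IGHV1-18 made up 2.22% of paired cells in KO replicate 2 and 2.02 to 2.04% in the other KO libraries. IGKV12-46 was paired with 3.70% of the IGHV1-22 cells of WT replicate 2, which is 1 of 27 cells, and with 0% in the other WT libraries. IGKV12-44 was paired with 5.35% of the IGHV1-26 cells of KO replicate 3 and with 7.14 to 7.41% in the other KO libraries.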

How the results depend on the processing

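Beside the main analysis, 652 alternative values were computed, and 526 of them kept the direction and the side of the threshold or, for counts, stayed within 1.5 times. A change of sign was seen in 29, in 1 of them for a value that had been called. The cause of none of the changes below was tested.

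Counting each clone once per library gave log2 fold changes in share of -0.12 for IGHV1-18, 0.28 for IGHV1-22 and 0.14 for IGHV1-26, with 12 genes higher and 10 lower. TMM factors gave -0.078 for IGHV1-18 and 0.33 for IGHV1-22 (adjusted p = 0.0675), and DESeq2 gave -0.079, 0.33 and 0.23. Over clones, the switched share of IGHV1-26 was -0.0097 and 1 gene was called higher. CDR3 length was -0.072 codons in IGHV1-22 and 0.075 in IGHV1-26, IGHJ2 use moved to 8.00, -0.15 and -1.54 percentage points in IGHV1-18, IGHV1-22 and IGHV1-26, and the log2 ratio of mutation frequency of IGHV1-18 to other IGHV1 genes differed between KO and WT by 0.013 (-0.81 and -0.82). IGKV1-135 with IGHV1-18 reached -7.45 points, now called. Of the within-library calls, IGHJ1 in IGHV1-18 against IGHV1-26 turned from -6.66 to 4.00 points, and 7 others were no longer called.

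Cells with 20 to 40 heavy-chain UMIs gave mutation frequencies of -0.93 (IGHV1-18) and 0.31 (IGHV1-22) with 10 genes lower, mutated cells of -0.87 and 0.26 with 8 lower, and switched shares of -0.35 and -0.32 with 3 higher and 0 lower. With at least 5 UMIs, 2 genes were lower in switched share. All barcodes with 1 heavy contig gave -0.14 for the switched share of IGHV1-22, and leaving out IGKV1-117 gave -0.48 for IGHV1-26. An exact permutation test in place of edgeR called 0 genes in mutation frequency, mutated cells and switched share, where 22, 20 and 10 of 44 had an unadjusted p below 0.05 and edgeR had called 31, 22 and 9. Its smallest p was 0.0286 in each, and its smallest adjusted p were 0.0571, 0.0629 and 0.126. It could call a gene only if more genes reached that smallest p. The effects of IGHV1-18 were -1.11, -0.84 and -1.68 and of IGHV1-26 -1.26 and -0.81. With a clone identity of 0.9, 4 IGHV1-18 clones spanned both genotypes.

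Same-numbered libraries did not deviate together (correlations of -0.10, -0.33, -0.25 and 0.05 over 81 genes, 0 of 4 best with their own number). With the replicate block, 1 gene was called higher and 2 lower in switched share, and no other call on the 3 genes changed.

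Leaving out 1 library at a time gave 0.36 to 0.54 for the share of IGHV1-22 (not called without KO replicate 4), -0.16 to 0.22 for its mutated cells, -0.50 to 0.64 for its switched share and -0.22 to 0.29 codons for its CDR3. It gave -2.09 to 2.73 points for IGHJ3 in IGHV1-18, -0.23 to 2.97 for IGHJ2 in IGHV1-26, 2 to 5 genes higher and 2 to 4 lower in switched share, 0 to 11 of 15 partners called, and IGHG1 differences of 40.8 to 56.3 points in IGHV1-26 and 30.3 to 42.2 over the 3 genes. At most 18 switched cells per gene and library stood behind the class comparisons.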

Other observations

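IGHV1-26 and IGHV1-18 shared the light chain IGKV12-44 as a partner that was higher in KO. It was paired with 6.80% and 11.5% of their KO cells and with 0.698% and 1.82% of their WT cells. Among other IGHV1 cells it was also higher in KO, at 1.77% against 0.914% in WT. In IGHV1-18, 53 KO cells carried IGKV12-44, and 30 of them joined it to IGHJ4 and a CDR3 of 14 codons, in 17 different CDR3 sequences from 4 clones. Of these 53 cells 25 were mutated, against 4 of 78 KO cells with IGKV1-135 and 5 of 65 with IGKV12-38. These are counts of cells, and the 53, 78 and 65 cells came from 22, 9 and 14 clones. The largest of these clones had 20, 60 and 28 cells, of which 5, 1 and 0 were mutated. The part of clone size in this difference was not tested.

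A D gene was called in few cells, with none called in 63.6% of IGHV1-18, 86.0% of IGHV1-22 and 71.4% of IGHV1-26 cells and in 77.8% of other IGHV1 cells. Among called cells IGHD1-1 was the most common in each of the 3 genes, at 46.2, 45.8 and 36.2%. IGHD2-4 followed in IGHV1-18 and IGHV1-26, at 24.1 and 32.1%, against 13.2% in other IGHV1 cells. These are shares of cells and not of clones. Of the 125 IGHV1-26 cells with IGHD2-4, many lay in 2 WT clones of 23 and 16 cells and in the set of 32 cells found in both genotypes. Of the 140 IGHV1-18 cells with IGHD1-1, 60 were the leading KO clone.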
